A study of Ceratotherium simum simum with 6 samples.

Results

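The genes of the laminin chains were followed in granulosa cells, which line the ovarian follicle around the oocyte, of 2 southern white rhinoceroses (Ceratotherium simum simum). The members were the 9 gene names LAMA1, LAMA2, LAMA3, LAMA4, LAMA5, LAMB1, LAMB2, LAMC1 and LAMC3, each taken as the locus of that name with the most counts, out of 22569 named loci and 25906 loci in all. Rhino 2 and rhino 1 had 3 RNA-seq libraries each. Both animals are labelled wild type, and their cells are labelled in vivo and collected before in vitro maturation (IVM), so the labels give no treatment that separates them. With 1 animal per group, and no label that says whether its libraries came from separate follicles or collections, each p-value covers only how these libraries vary, and that variation may be technical.

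Laminins are the large cross-shaped glycoproteins from which a basement membrane is built. Each is assembled inside the cell from an alpha, a beta and a gamma chain. The end of the alpha chain binds integrins and dystroglycan on the cell surface, and the gamma chain binds nidogen in the matrix. In the ovary a basement membrane separates the granulosa cells from the theca, and in cattle that follicular basal lamina is known to hold the alpha 1, beta 2 and gamma 1 chains.

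The libraries held 1523904, 703708 and 1078480 counts in rhino 2, and 13288936, 672410 and 1449450 counts in rhino 1 (replicates 1, 2 and 3 in both). In rhino 1 replicate 1 the named genes took 94.5% of the counts. In the other libraries they took 2.31% to 2.61%, and most counts lay on unnamed gene models of the opposite strand. Counts of both strands were therefore summed at each locus, which was possible for 7 of the 9 members. LAMA4 and LAMC3 had no opposite-strand model, so that a 0 in the 5 libraries other than rhino 1 replicate 1 says nothing about their RNA. At the 7 other members, the opposite strand held every count in those libraries, and at most 0.709% of the counts in rhino 1 replicate 1. Of the granulosa markers, FOXL2, FSHR, AMH, INHA, CYP19A1, INHBA and FST had counts in every library, and their summed level was 7972 to 12565 CPM (counts scaled to a library total of 1000000) in rhino 2 and 12314 to 19767 CPM in rhino 1.

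Of the members modelled on both strands, LAMA1 led the alpha chains and LAMB2 the beta chains in each of the 6 libraries, as measured by level per kilobase of exon (CPM per kb). LAMC1 led the gamma chains in rhino 1 replicate 1, where LAMC3 could be counted too. LAMA2 came next to LAMA1 among the alpha chains and had the largest fold change between the animals among the members with counts in every library. It averaged 80.1 ± 30.3 CPM per kb in rhino 2, against 16.0 ± 4.66 CPM per kb in rhino 1 (SD, n = 3 each), although it missed the threshold of the test. The alpha chain genes together stood well above the gamma chain genes, at 9.36 to 16.5 times their summed level per kb in rhino 2 and 5.45 to 18.5 times in rhino 1.

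**Figure D1:**
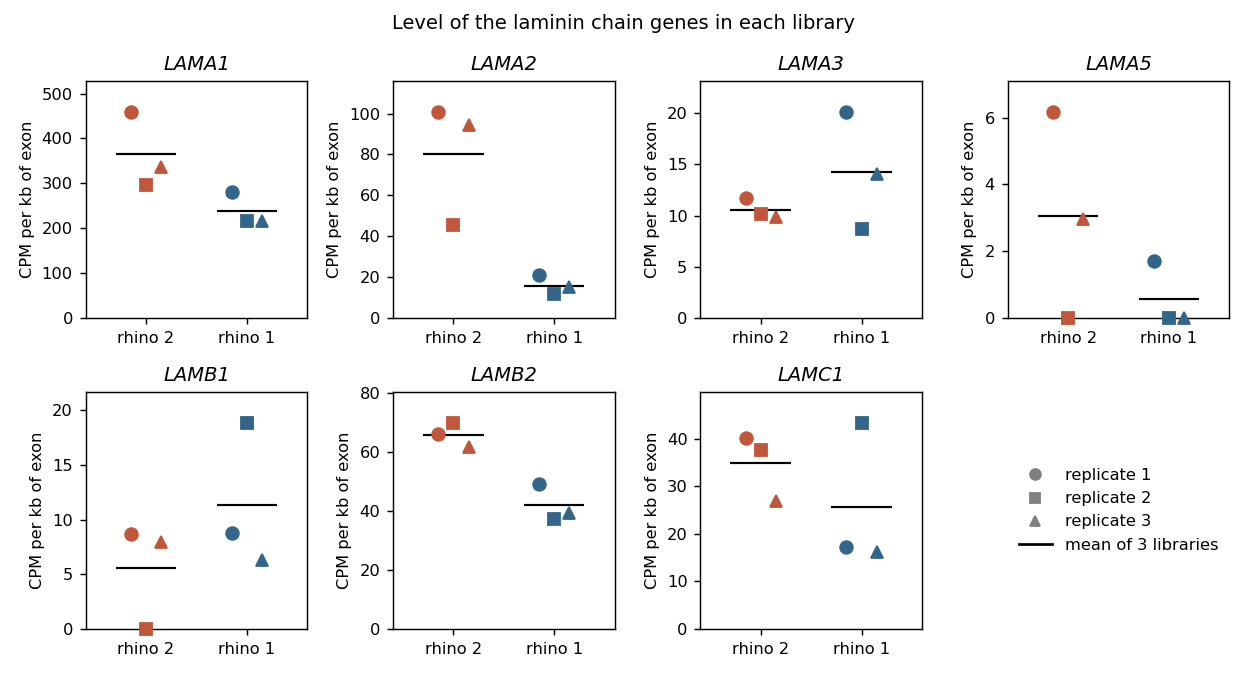
Level of each laminin chain gene with an opposite-strand model, in CPM per kb of exon on linear axes that start at 0, for rhino 2 and rhino 1. Symbols are the libraries and lines the means of 3. LAMA1, LAMA2 and LAMB2 did not overlap between the animals and lay higher in rhino 2, while LAMA3, LAMA5, LAMB1 and LAMC1 overlapped.

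LAMA1 encodes the alpha 1 chain, the alpha chain of early embryonic basement membranes, which adult tissues make in few places. Its locus was on scaffold 14 (1647748 to 1805962, minus strand, 63 exons, 9234 bases of exon). It had 4239, 2744 and 3111 CPM in rhino 2, against 2603, 1997 and 2001 CPM in rhino 1. The lowest library of rhino 2 was above the highest of rhino 1, by a narrow margin. Among the 10525 named loci with an opposite-strand model LAMA1 ranked 12 by mean CPM, and 300 by mean CPM per kb, with a rank between 194 and 517 in single libraries. Its transcript is long, and it ranked lower per length than by counts. A further locus named LAMA1, a single exon of 213 bases on scaffold 18, had 0 counts in every library.

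LAMA2, the alpha 2 chain known from muscle and peripheral nerve, had 969, 436 and 906 CPM in rhino 2, against 202, 113 and 146 CPM in rhino 1 (scaffold 20, 8130769 to 8705305, minus strand, 64 exons). All 3 libraries of rhino 2 were above those of rhino 1, and rhino 2 replicate 2, the lowest of its animal, was still well above the highest of rhino 1. LAMA2 took 17.4%, 12.9% and 21.2% of the alpha chain level per kb in rhino 2, against 6.46%, 4.96% and 6.18% in rhino 1. LAMA1 was 4.56, 6.55 and 3.58 times LAMA2 per kb in rhino 2 and 13.4, 18.4 and 14.3 times in rhino 1.

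LAMA3, whose chain anchors epithelia, had 122, 105 and 103 CPM in rhino 2, against 209, 90.7 and 146 CPM in rhino 1 (scaffold 14, 15367033 to 15612460, plus strand, 75 exons). The animals overlapped, with rhino 1 holding both the highest and the lowest library. In rhino 1 LAMA2 and LAMA3 stood at nearly the same level, 16.0 ± 4.66 and 14.3 ± 5.69 CPM per kb (SD, n = 3), a difference smaller than their spread.

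LAMA5, the most widespread alpha chain of adult basement membranes, was low and patchy (scaffold 22, 49321684 to 49378468, minus strand, 73 exons). It had 61.7, 0 and 29.7 CPM in rhino 2, against 17.2, 0 and 0 CPM in rhino 1. By counting error alone a 0 allows up to 4.26 CPM in rhino 2 replicate 2, and up to 4.46 and 2.07 CPM in rhino 1 replicates 2 and 3 (3 counts of the library total). The 11 opposite-strand models of LAMA5 were short pieces that covered 62.3% of its exonic length, so its counts in 5 libraries rest on part of the gene. LAMA4, the alpha chain of blood vessel walls (scaffold 20, 23110602 to 23244713, plus strand), had 0 counts in every library. In rhino 1 replicate 1, where named strands were counted, that allows up to 0.226 CPM.

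The shares of the alpha chains per kb shifted with LAMA2. LAMA1 made up 79.5%, 84.3% and 75.9% of the summed alpha chain level in rhino 2 and 86.8%, 91.4% and 88.1% in rhino 1. The animals did not overlap, and the exact two-sided permutation test of the difference in means gave p = 0.10, the smallest p that 3 libraries against 3 allow (adjusted p = 0.167 by Benjamini-Hochberg over the 15 chain measures tested). LAMA3 took 2.03% to 2.87% in rhino 2 and 3.68% to 6.19% in rhino 1, with the same p-values from the exact permutation test.

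**Figure D2:**
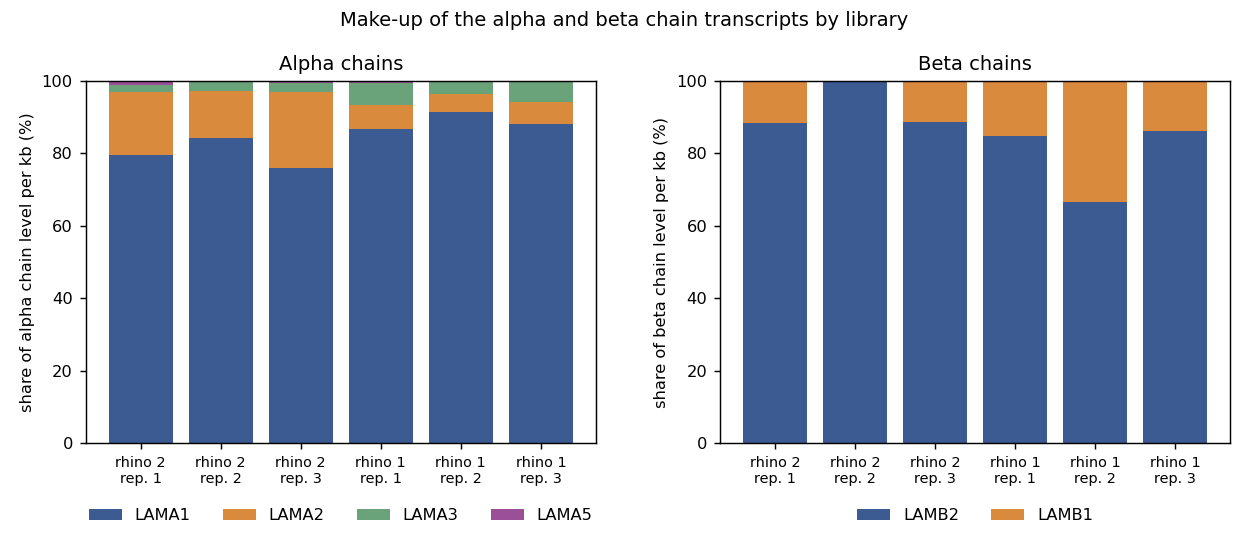
Share of each alpha chain gene (left) and beta chain gene (right) in the summed level per kb of its class, in percent, for the 3 libraries of rhino 2 and then the 3 of rhino 1. LAMA1 and LAMB2 took most of their class in every library, and the LAMA2 band was wider in rhino 2, at 12.9% to 21.2%, than in rhino 1, at 4.96% to 6.46%.

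LAMB2 encodes the beta 2 chain, which replaces beta 1 in kidney and synaptic basement membranes. It had 356, 378 and 334 CPM in rhino 2, against 265, 202 and 212 CPM in rhino 1 (scaffold 5, 72135792 to 72147269, minus strand, 32 exons). The libraries of rhino 2 varied little, with a mean of 356 ± 22.1 CPM against 227 ± 33.9 CPM in rhino 1 (SD, n = 3 each), and all were above those of rhino 1.

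LAMB1, the widely used beta 1 chain, had 46.6, 0 and 42.7 CPM in rhino 2, against 46.8, 101 and 33.8 CPM in rhino 1 (scaffold 1, 93168428 to 93238069, minus strand, 33 exons). The values overlapped. The 0 of rhino 2 replicate 2 has an upper limit of 4.26 CPM by counting error. Whether it is a failed estimate was not tested. In that library 853 of 7401 named loci with a mean of at least 10 CPM and both strands modelled were listed at 0. The number was 98 in rhino 2 replicate 1 and 305 in rhino 2 replicate 3. In rhino 1, 1407 such loci were at 0 in replicate 2, 19 in replicate 1 and 82 in replicate 3.

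LAMB2 was above LAMB1 per kb in all 6 libraries. The ratio was 7.58 and 7.76 in rhino 2 replicates 1 and 3, and 5.62, 1.98 and 6.23 in rhino 1. LAMB1 made up 11.6%, 0% and 11.4% of the beta chain level in rhino 2 and 15.1%, 33.5% and 13.8% in rhino 1 (exact permutation p = 0.10, adjusted p = 0.167). Without rhino 1 replicate 2, whose LAMB1 share was the highest, the difference in means changed to -6.77 percentage points, against -13.1 with all libraries.

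The name LAMB1 stood on 3 loci. Next to the locus used here lay a gene model that carries both LAMB1 and LAMB4 names (scaffold 1, 93277691 to 93401726), with 115 counts in rhino 1 replicate 1 and 0 elsewhere. It has no opposite-strand model, so a 0 in the other libraries says nothing about its RNA. The deposited order along the scaffold was DLDH, the LAMB1 locus used here, a LAMB4 fragment, the model with both names and NRCAM. In RefSeq (assembly ASM5780239v1 of the same subspecies) the order of protein-coding genes is NRCAM, LAMB4, LAMB1 and DLD, so the model with both names sat in the place of LAMB4. Adding its counts to LAMB1 could change the LAMB1 share in rhino 1 replicate 1 alone. The mean share over the 6 libraries moved from 14.2% to 14.6%, and says little about the size of that change.

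LAMC1 encodes the gamma 1 chain, the gamma chain of most laminins. It had 194, 182 and 130 CPM in rhino 2, against 83.4, 210 and 78.7 CPM in rhino 1 (scaffold 2, 18019377 to 18143061, plus strand, 28 exons). Rhino 1 held both the highest library and the lowest, and the animals overlapped. LAMC3, a gamma chain with a restricted distribution, had 17 counts in rhino 1 replicate 1, which is 1.28 CPM (95% Wilson interval 0.799 to 2.05, counting error only; scaffold 29, 6123711 to 6182762, minus strand). LAMC1 therefore made up 98.5% of the gamma chain level per kb in that library, the only one in which both genes could be counted.

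A laminin molecule takes up a chain of each class, but the transcripts were not in that proportion. The summed level per kb of the alpha chains was 578, 353 and 444 CPM per kb in rhino 2, against 325, 237 and 246 CPM per kb in rhino 1. For the beta chains it was 74.6, 69.9 and 69.7 CPM per kb in rhino 2, against 57.8, 56.3 and 45.6 CPM per kb in rhino 1. The gamma chains had 40.2, 37.7 and 26.9 CPM per kb in rhino 2, against 17.5, 43.4 and 16.3 CPM per kb in rhino 1. Alpha stood above beta and beta above gamma in every library, in sums to which LAMA4 and LAMC3 could add counts only in rhino 1 replicate 1.

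The ratio of alpha to gamma averaged 13.4 ± 3.67 in rhino 2 and 13.0 ± 6.77 in rhino 1, and that of beta to gamma 2.10 ± 0.426 in rhino 2 and 2.46 ± 1.04 in rhino 1 (SD, n = 3 each). Neither differed between the animals beyond the spread of the libraries (exact two-sided permutation test on log2 ratios, p = 0.90 and 0.80; adjusted p = 0.964 and 0.923). The named models of 8 of the 9 members have lengths that are multiples of 3, as have 85.4% of all named transcripts. They may therefore hold coding sequence alone, which was not tested. The opposite-strand model of LAMC1 was longer, at 163% of the named length, while those of LAMA1, LAMA2, LAMA3, LAMB1 and LAMB2 were at 99.2% to 106%. Dividing each library's counts by the length of the models that held them gave alpha to gamma ratios of 22.8, 14.7 and 26.2 in rhino 2 and 18.5, 8.54 and 23.7 in rhino 1. The gamma chain level was then 24.6, 23.1 and 16.5 CPM per kb in rhino 2, against 17.5, 26.6 and 9.97 CPM per kb in rhino 1. The other LAMC1 levels and its log2 fold change given here do not allow for that length.

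**Figure D3:**
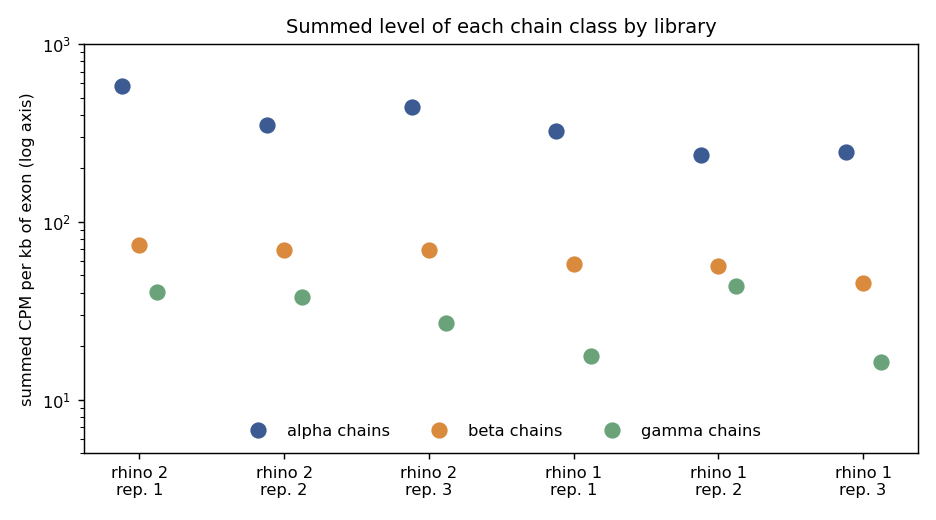
Summed level of the alpha, beta and gamma chain genes, in CPM per kb of exon on a log axis, for the 3 libraries of rhino 2 and then the 3 of rhino 1. In each library the alpha chains lay highest, at 237 to 578 CPM per kb, and the gamma chains lowest, at 16.3 to 43.4 CPM per kb.

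Between the animals, none of the 7 members tested passed the threshold by edgeR's quasi-likelihood test with Benjamini-Hochberg adjustment over all 8532 loci tested (0 of 7, where 0.551% of all loci passed). The count was 3 of 7 at unadjusted p-values below 0.05 (12.9% of all loci), 3 of 7 by DESeq2 (7.34%) and 1 of 7 by limma-voom (8.93%). LAMA2 came closest, with a log2 fold change of rhino 2 over rhino 1 of 2.40 (SE 0.39, edgeR adjusted p = 0.0536). It passed by DESeq2 (adjusted p = 2.7e-07) and limma-voom (adjusted p = 0.0088), and with any 1 library left out its edgeR adjusted p lay between 0.0583 and 0.268.

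LAMB2 had a log2 fold change of 0.74 (SE 0.20, edgeR adjusted p = 0.165) and LAMA1 of 0.70 (SE 0.25, edgeR adjusted p = 0.289). Both passed by DESeq2 alone, with adjusted p = 0.0146 for LAMB2 and 0.0340 for LAMA1. LAMC1 (0.58, SE 0.40) and LAMA5 (2.32, SE 2.04) were above 0 and LAMA3 (-0.36, SE 0.34) and LAMB1 (-0.87, SE 1.09) below, with edgeR adjusted p of 0.699 to 0.915. The LAMA5 value depends on the libraries at 0. It was 8.10 without rhino 1 replicate 1, which left rhino 1 at 0, and is no estimate of a size there. LAMA3 was 0.00 without rhino 1 replicate 1, the library with its highest level. LAMB1 was -0.30 without rhino 2 replicate 2, and LAMC1 was 1.10 without rhino 1 replicate 2.

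The libraries of rhino 2 were all above those of rhino 1 for 3 of the 7 members, LAMA1, LAMA2 and LAMB2, as they were for 10.4% of all loci tested. The log2 fold change was above 0 for 5 of 7, as for 52.8% of all loci. The median log2 fold change of the 7 members was 0.70, against 0.04 for all loci tested. The 9 loci together held 5989, 3845 and 4656 CPM in rhino 2, against 3428, 2714 and 2619 CPM in rhino 1 (exact permutation p = 0.10, adjusted p = 0.167). LAMA1 made up most of that sum.

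**Figure D4:**
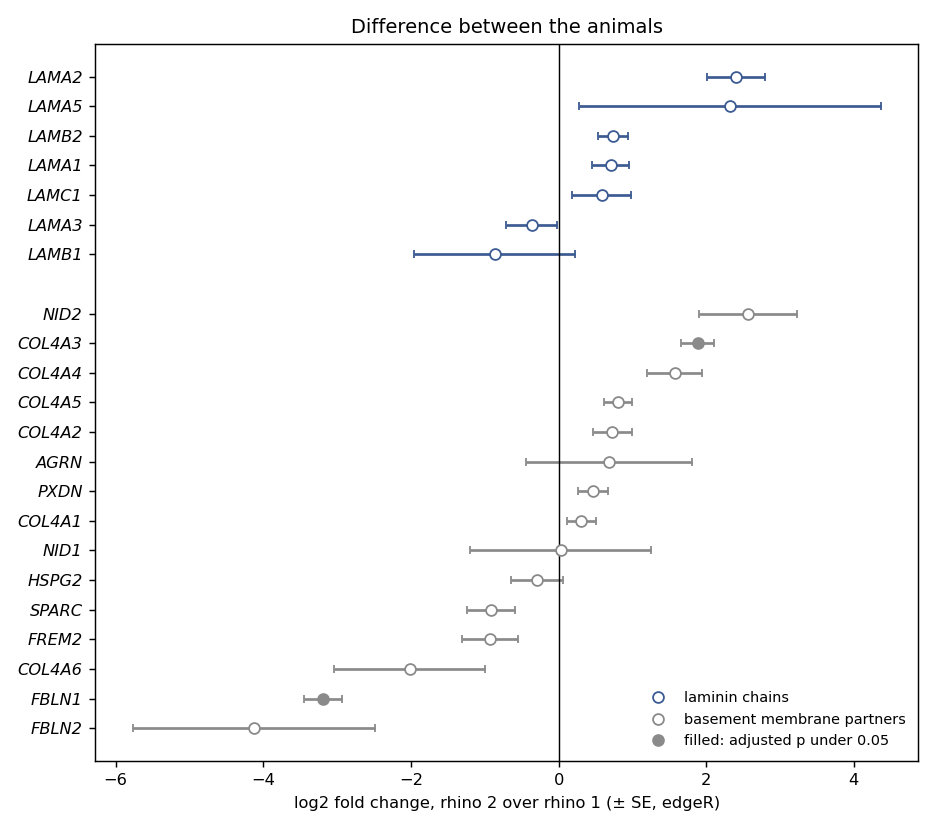
Log2 fold change of rhino 2 over rhino 1 with an SE derived from edgeR's F statistic, for the 7 laminin chain genes tested and for 15 of the 16 other basement membrane genes tested (TINAGL1, at 0 in all libraries of rhino 2, is left out). Filled points passed an adjusted p of 0.05, and none of the laminin points is filled. LAMA2, at 2.40, lay highest among the laminin chains.

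Some members were assembled as more than 1 transcript. In rhino 1 replicate 1, LAMA2 had a full model of 64 exons with 540 counts and a shorter one of 54 exons that lacks the 5′ part of the gene, with 2136 of the 2676 counts on that strand (79.8%, 95% Wilson interval 78.3 to 81.3). The shorter model had no counterpart on the opposite strand, so the other libraries cannot be set beside it. In LAMA3, a model of 58 exons without the 5′ part held 270 of 2776 counts (9.73%, 8.68 to 10.9) in the same library. The opposite-strand pieces of LAMA3 ran from 5′ to 3′ with 0, 11, 29, 67 and 79 counts in rhino 2 replicate 1. That is 0, 12.6, 11.7, 23.2 and 25.9 counts per kb. The second to last pieces had 5.74, 4.84, 8.99 and 10.2 counts per kb in rhino 2 replicate 2, and 0, 9.68, 10.7 and 18.35 in rhino 2 replicate 3. In rhino 1 the same pieces had 8.04, 5.65, 2.07 and 11.1 counts per kb in replicate 2, and 19.5, 10.1, 20.7 and 36.1 in replicate 3. The last 2 pieces held more per length than those before them in each of these libraries except rhino 1 replicate 2. The first piece was at 0 in all 6 libraries. The split of reads between overlapping models is the assembler's estimate.

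LAMB2 had a shorter opposite-strand model of 18 exons, also without the 5′ part. It held 195 of 360 counts (54.2%, 95% Wilson interval 49.0 to 59.2) in rhino 2 replicate 3 and 32 of 266 (interval 8.65% to 16.5%) in rhino 2 replicate 2. In rhino 1 it held 130 of 308 (42.2%, 36.8 to 47.8) in replicate 3 and 29 of 136 (21.3%, 15.3 to 29.0) in replicate 2. The share differed within each animal by more than these intervals and overlapped between the animals. For rhino 2 replicate 1 the counts per transcript were not analysed here.

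Of the laminin chain genes outside the 9, LAMB3 had 7.22, 0 and 2.78 CPM in rhino 2, against 11.5, 0 and 0 CPM in rhino 1. The netrin genes encode relatives of the laminin short arms, and 3 of the list of 9 laminin and netrin genes were tested. NTN4, whose protein binds laminin in basement membranes, had 111, 102 and 83.5 CPM in rhino 2, against 48.3, 58.0 and 62.1 CPM in rhino 1 (0.92 on the log2 scale, edgeR adjusted p = 0.148). NTN3 (-1.34, adjusted p = 0.278) and NTN5 (2.05, adjusted p = 0.860) did not pass edgeR's test either. NTN5 has no opposite-strand model. By edgeR 0 of the 3 passed (0.551% of all loci), with 2 at unadjusted p-values below 0.05 (12.9% of all loci), 1 by DESeq2 (7.34%) and 1 by limma-voom (8.93%).

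The partners that laminin binds in the matrix were present at very different levels. Of 20 genes of the basement membrane list, 16 were tested, with 9 above 0, 7 below 0 and a median log2 fold change of 0.17. By edgeR COL4A3 was the 1 gene that rose, in rhino 2 over rhino 1, and FBLN1 the 1 that fell (2 of 16). Of all loci tested, 0.246% rose and 0.305% fell. The count of the list was 10 of 16 at unadjusted p-values below 0.05 (12.9% of all loci), 6 by DESeq2 (7.34%) and 5 by limma-voom (8.93%). COL4A3, a type IV collagen chain gene known from the kidney filter, had 2325 ± 163 CPM in rhino 2, against 670 ± 117 CPM in rhino 1 (SD, n = 3 each; 1.88 on the log2 scale, SE 0.23, edgeR adjusted p = 0.0308). FBLN1, which encodes the matrix protein fibulin 1, had 60.3 ± 4.45 CPM in rhino 2, against 584 ± 128 CPM in rhino 1 (-3.19, SE 0.26, adjusted p = 0.0124). Both calls held without rhino 1 replicate 1 (adjusted p = 0.0346 and 0.0280). The COL4A3 call was lost without any other library (0.0861 to 0.174), and the FBLN1 call without any library other than rhino 1 replicates 1 and 2 (0.0568 to 0.146).

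Of the nidogens, which link laminin to type IV collagen, NID2 had 83.3, 29.8 and 45.4 CPM in rhino 2, against 6.92, 17.8 and 5.52 CPM in rhino 1 (2.57 on the log2 scale, SE 0.67, edgeR adjusted p = 0.148). NID2 did not overlap between the animals but missed the threshold. NID1 overlapped, with 65.0, 0 and 31.5 CPM in rhino 2, against 20.1, 66.9 and 19.3 CPM in rhino 1 (0.03, SE 1.23, edgeR adjusted p = 0.999). FBLN2 had 6.56, 0 and 0 CPM in rhino 2, against 11.4, 116 and 17.2 CPM in rhino 1, and TINAGL1 had 0 in all libraries of rhino 2 and 17.8, 78.8 and 24.8 CPM in rhino 1. Neither passed by edgeR (adjusted p = 0.350 and 0.103). Genes of the list that did not overlap between the animals numbered 12 of 16, against 24.4% of all loci tested.

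Genes of the laminin receptors showed no difference past the threshold. Of 21 listed, 19 matched and 11 were tested. The number past the threshold was 0 by edgeR (0.551% of all loci), 0 without adjustment (12.9%), 0 by DESeq2 (7.34%) and 0 by limma-voom (8.93%), and the median log2 fold change was 0.25, with 8 above 0 and 3 below. SDC4, a syndecan gene, had 314, 126 and 362 CPM in rhino 2, against 29.6, 175 and 121 CPM in rhino 1 (1.45, SE 0.65, edgeR adjusted p = 0.435). DMD, the dystrophin gene, had 13.8, 0 and 0 CPM in rhino 2, against 47.3, 0 and 15.9 CPM in rhino 1 (-2.11, SE 2.10, edgeR adjusted p = 0.860). RPSA (0.43, adjusted p = 0.538) and BCAM (0.40, adjusted p = 0.970) were next in size by edgeR, and RPSA is a name on 12 loci, so its count is uncertain.

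The genes of integrin alpha 6 beta 1 and of dystroglycan, well known laminin receptors, are named after their values were seen. ITGA6 had 1359 ± 206 CPM in rhino 2, against 1834 ± 422 CPM in rhino 1. ITGB1 had 859 ± 33.4 CPM in rhino 2, against 786 ± 313 CPM in rhino 1, and DAG1 had 1404 ± 189 CPM in rhino 2, against 1485 ± 379 CPM in rhino 1 (SD, n = 3 each for the 3 genes). ITGA1 and ITGA2, integrin genes with models on both strands, were at 0 in all 6 libraries.

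The enzymes that build the sugar chain by which dystroglycan binds laminin were also tested, 10 of 13 listed, with 5 above 0, 5 below and a median of 0.04. By edgeR 0 passed (0.551% of all loci), with 0 before adjustment (12.9%), 0 by DESeq2 (7.34%) and 1 by limma-voom (8.93%). Among the largest log2 fold changes were those of LARGE2 (1.14, edgeR adjusted p = 0.660), POMT1 (-0.91, edgeR adjusted p = 0.513) and B4GAT1 (-0.69, edgeR adjusted p = 0.547).

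In bulk RNA, fewer cells of a type and less RNA per cell cannot be told apart, and laminin chains are also made by muscle, stroma and vessels. Fibroblast and stroma markers summed to 1249, 621 and 1271 CPM in rhino 2, against 679, 6622 and 1485 CPM in rhino 1 (5 of 6 matched). Smooth muscle and pericyte markers summed to 952, 588 and 779 CPM in rhino 2, against 402, 2632 and 731 CPM in rhino 1 (6 of 7 matched). Both sums were highest in rhino 1 replicate 2, the smallest library, in which 1407 of the 7401 named loci described for LAMB1 were at 0. LAMB1 was also highest there, at 101 CPM (Wilson interval 79.8 to 128). LAMA1 and LAMA2 were lowest and LAMC1 highest there by value, but their Wilson intervals overlapped those of another library. LAMA1 had 1997 and LAMA2 113 CPM, against 2001 and 146 CPM in rhino 1 replicate 3. LAMC1 had 210 CPM, against 194 CPM in rhino 2 replicate 1. A link of these sums to the chain levels was not tested. MYH11, a smooth muscle myosin gene, lay higher in rhino 2 as LAMA2 did, with 721 ± 187 CPM in rhino 2, against 188 ± 73.3 CPM in rhino 1 (SD, n = 3 each; 2.01 on the log2 scale, edgeR adjusted p = 0.0737).

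The 4 other smooth muscle and pericyte genes tested had log2 fold changes below 0, but of these only CNN1 did not overlap between the animals. MCAM was near no difference for its error (-0.52, SE 1.80, edgeR adjusted p = 0.983). ACTA2, the smooth muscle actin gene, had 9.84, 41.2 and 0 CPM in rhino 2, against 39.6, 2292 and 393 CPM in rhino 1 (-5.69, edgeR adjusted p = 0.225). CNN1 had 18.5 ± 5.09 CPM in rhino 2, against 101 ± 41.0 CPM in rhino 1 (SD, n = 3 each; -2.32, edgeR adjusted p = 0.0581), and RGS5, a pericyte gene, gave -2.03 (edgeR adjusted p = 0.359). DES was at 0 throughout, but has no opposite-strand model. Of the stroma genes, COL1A1 and DCN were at 0 in all libraries of rhino 2. In rhino 1 COL1A1 had 4.67, 2870 and 353 CPM, and DCN had 0, 216 and 49.7 CPM. COL1A2 (-0.51, edgeR adjusted p = 0.917) and COL3A1 (-1.15, edgeR adjusted p = 0.422) had counts in every library.

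Endothelium markers summed to 169, 257 and 195 CPM in rhino 2, against 112, 78.8 and 57.3 CPM in rhino 1 (7 of 7 matched), nearly all of it TEK (1.47 on the log2 scale, edgeR adjusted p = 0.0892). CDH5, KDR and CLDN5 were at 0 in every library, and these genes have no opposite-strand model. PECAM1 and VWF, modelled on both strands, had at most 1.35 and 3.94 CPM. Of the theca markers only LHCGR had counts, at 21.3 to 38.0 CPM in rhino 2, against 56.5 to 180 CPM in rhino 1 (-2.21, edgeR adjusted p = 0.123). CYP17A1 and INSL3, which have no opposite-strand model, were at 0, so these values are those of 1 gene and no measure of theca. Leukocyte markers reached 26.9 CPM in rhino 2, against 57.2 CPM in rhino 1 replicate 1. Only in that library did PTPRC, LYZ, CSF1R and CD3E, which have no opposite-strand model, hold counts. CD68, modelled on both strands, had 13.8, 0 and 26.9 CPM in rhino 2, against 12.9, 0 and 2.07 CPM in rhino 1 (1.40, edgeR adjusted p = 0.921). Surface epithelium markers were at 0 CPM in rhino 2, against 93.4, 223 and 6.21 CPM in rhino 1, all of it KRT19. MSLN and UPK3B were at 0 but have no opposite-strand model, so these values are those of 1 gene. Oocyte markers were at 0 CPM in rhino 2, against 3.91 CPM in rhino 1 replicate 1. None of the oocyte markers has an opposite-strand model, so a 0 in the other libraries says nothing about their RNA. Of the granulosa markers AMH, the anti-Müllerian hormone gene, rose in rhino 2 over rhino 1 (2.16, edgeR adjusted p = 0.0192; 0.0361 without rhino 1 replicate 1, and 0.0568 to 0.146 without any other library, where the call was lost). CYP19A1 (-3.34, edgeR adjusted p = 0.0536), INHBA (-1.56, edgeR adjusted p = 0.0952) and FSHR (0.74, edgeR adjusted p = 0.623) had the next largest differences. The part of these marker levels in the differences of LAMA2 and the other chains was not tested.

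The loci whose levels ran most like those of LAMA1, LAMB1 and LAMC1 were ranked by Pearson's r of log2(CPM + 1) over the 6 libraries among 7401 named loci on both strands with a mean of at least 10 CPM. The libraries share their depth and animal in all of these pairs, and r is given as a description. For LAMA1 they were EDNRA (0.990), the gene of an endothelin receptor, UBP47 (0.986), a ubiquitin protease, and KDIS (0.985), a neuronal scaffold protein. EDNRA had 121, 68.2 and 77.9 CPM in rhino 2, against 66.2, 37.2 and 38.6 CPM in rhino 1, the same order of libraries as in LAMA1. For LAMC1 they were PDZD8, PTN12 and ZN317 (0.981, 0.979 and 0.974). For LAMB1 they were SL9A1, ATG2A and CD123 (0.998, 0.998 and 0.997), and these loci were at 0 in rhino 2 replicate 2, as LAMB1 was. The names are UniProt entry names, in which CD123 stands for the gene CDC123. Among the members themselves LAMA1 ran with LAMA2 (r = 0.92) and LAMB2 (0.84), and r was 0.34 with LAMC1 and -0.10 with LAMB1.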

How the data were processed

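Per the labels' protocols, the PicoPure kit gave the RNA of the granulosa cells, and the NEBNext Ultra II RNA kit the libraries. Trimmomatic, HISAT2 and StringTie are named in the submitters' processing notes; for versions, settings, strand option and genome build, nothing is given in the sources used here. The authors deposited whole-number read counts, not normalized, per assembled transcript for 5 libraries and per assembled gene for rhino 2 replicate 1. The deposited table of scaffold positions gave exons, strands and gene names (22569 of 40656 assembled genes named).

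Here transcript counts were summed to genes. Where an unnamed gene and a named gene of the other strand shared at least 50% of the shorter one's exonic length, they were joined into 1 locus (14075 genes, bedtools 2.31.1), and unnamed genes left over were joined to each other by the same rule, which left 25906 loci. CPM used the library total. Levels per kb used the union of the named gene's exons. No UMIs were used, so that intervals and limits hold for counting error alone. Animals were set against each other in edgeR 4.0.16 (R 4.3.3; TMM scaling, filterByExpr, quasi-likelihood test, two-sided, Benjamini-Hochberg, threshold 0.05). edgeR gives no SE, so each SE was taken as the absolute log2 fold change divided by the square root of the test's F statistic. The fit was tested on simulated data. DESeq2 1.42.0 and limma-voom (limma 3.58.1) were alternatives, with others of scaling, filter, strand joining, locus choice and length, a replicate block and each library left out. Chain shares and ratios were compared by exact permutation tests.

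The 9 members were named in all cases. From 12 lists of 106 symbols (102 matched by name or UniProt entry name), markers included, members past the threshold and the 4 largest fold changes were named, apart from items that are not reported here. For likeness, 3 loci were named for each of LAMA1, LAMB1 and LAMC1. Markers at 0, MCAM, NID1 and 3 receptor genes are named besides. The members and lists were chosen with earlier results of these data known.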

Additional observations from a re-analysis of the deposited data

How the results depend on the processing

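The number of laminin members past the threshold, 0 of 7 by edgeR with all libraries, was also 0 with DESeq2 size factors, with a mean of at least 5 CPM required, with all loci of a laminin name summed and without any 1 library (0 to 0). It was 1, LAMA2, with the library total alone (adjusted p = 0.0499), no filter (5.5e-04), limma-voom (0.0088), only loci modelled on both strands (0.0328) and strands joined at any overlap (0.0497), and 3 by DESeq2. On the genes as deposited no member could be tested. No log2 fold change of a tested member changed sign in its 16 alternatives. The mean ratio of alpha to gamma chains over the 6 libraries, 13.2, was 25.5 with no division by length and 19.1 with the length of the models that held the counts, and that of beta to gamma, 2.28, was 3.24 with that same model length, an alternative chosen after the data were seen. With 1 library left out, the mean LAMA1 share lay between 82.9% and 86.0%, the LAMB1 share between 10.4% and 17.1%, the alpha to gamma ratio between 12.2 and 14.8 and the beta to gamma ratio between 2.08 and 2.48. The replicate numbers were entered as a block in one fit, with 0 of 7 members past the threshold and LAMA2 at adjusted p = 0.216; COL4A3 (0.225), FBLN1 (0.216) and AMH (0.216) did not pass in it. Deviations of same-numbered libraries from the animal means correlated at 0.21, 0.13 and 0.01 for replicates 1, 2 and 3, so the numbers were not taken to pair the libraries. Depth limits LAMB1, LAMA3 and LAMA5, which had at most 212 counts in each library other than rhino 1 replicate 1. In those libraries LAMC1 had 114 to 296 counts. LAMA2 had 76 and 212 counts in rhino 1 replicates 2 and 3, and LAMB2 had 136 in rhino 1 replicate 2, so depth limits these too.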
